A study of Homo sapiens with 16 samples.

Results

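The 10 genes described here encode the folding machinery and stress proteins of the endoplasmic reticulum (ER) lumen: HSPA5 (BiP), HSP90B1 (GRP94), CALR (calreticulin), CANX (calnexin), UGGT1, UGGT2, SDF2L1, MANF, CRELD1 and CRELD2. They were taken by name, and each matched 1 row of the 58051 genes counted. All libraries came from LNCaP, a line of human prostate cancer cells, and were RNA-seq libraries counted in fragments per gene. For the knockdown, Allstar control siRNA (siCtrl, n = 4) or siRNA against XBP1 (siXBP1, n = 4) was introduced by reverse transfection, and the cells were left for 2 days. In the inhibitor experiment, cells received DMSO (Vehicle, n = 4) or 10 μM MKC8866, an inhibitor of the IRE1α endoribonuclease (MKC8866, n = 4), for 24 h. All 4 groups, controls included, were then given 30 nM thapsigargin for 3 h, so no unstressed cells were measured and induction by thapsigargin is not part of any comparison here.

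Thapsigargin inhibits the SERCA pump and so drains calcium from the ER, which impairs the calcium-dependent chaperones of the lumen. Cells answer with the unfolded protein response, whose sensors are IRE1α, PERK and ATF6. IRE1α splices XBP1 mRNA so that it encodes the transcription factor XBP1s, and ATF6 is cut by Golgi proteases to release a transcription factor of its own. BiP, GRP94 and calreticulin are textbook targets of ATF6, and XBP1s binds related promoter elements. BiP is the Hsp70 of the lumen, GRP94 its Hsp90, and calreticulin and calnexin are lectin chaperones that hold glycoproteins carrying a single glucose. UGGT1 puts that glucose back on incompletely folded glycoproteins, and UGGT2 is its paralogue. SDF2L1 is a small lumenal protein that works with BiP and its co-chaperone ERdj3, MANF is a secreted stress protein that binds BiP, and CRELD2 is a lumenal, secreted protein whose paralogue CRELD1 is anchored in the membrane.

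The promoter letters are shown first, because the ER stress response element is the feature that many of these genes share and the responses below differ among its carriers. The element is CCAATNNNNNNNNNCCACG, in which the first box is bound by NF-Y and the second by ATF6 or XBP1s, and element II is ATTGGNCCACG. Both were searched on both strands of the RefSeq promoter table (GRCh38.p14, 250 bases before to 50 after each start), in which all 10 genes had an entry and 14 promoters in all. The element was present for 5 of the 10 genes and in 7 of their 14 promoters, 3 of them CANX promoters that hold it at 1 place, against 27 of the 35116 promoters in the table (0.0769%). Element II was present in 1 of the 14, that of SDF2L1, against 19 promoters in the table (0.0541%). The genes were chosen as ER lumenal chaperones and ATF6-type targets, so these shares reflect the choice and test nothing. In the lines that follow, capitals mark the boxes and each sequence is written on the strand on which the element reads forward.
HSPA5: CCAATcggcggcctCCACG
HSP90B1, distal copy: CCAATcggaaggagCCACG
HSP90B1, proximal copy: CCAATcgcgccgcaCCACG
CALR: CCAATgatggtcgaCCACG
CANX: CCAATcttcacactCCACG
CRELD2: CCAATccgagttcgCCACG
SDF2L1, element II: ATTGGtCCACG

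The HSPA5 element lay on the minus strand at chr9:125241391-125241409, beginning 66 bases upstream of the RefSeq start and outside the gene as annotated in the deposited table. Those of HSP90B1 lay at chr12:103930216-103930234 and chr12:103930321-103930339, beginning 194 and 89 bases upstream, and fell in an exon of the deposited annotation, whose first start is further upstream. The CALR element lay at chr19:12938384-12938402, 225 bases upstream and outside the annotated gene. The CANX element lay at chr5:179698778-179698796, 151 bases upstream of one of its RefSeq starts and in an annotated exon, and that of CRELD2 at chr22:49918554-49918572, 80 bases upstream and in an annotated intron. Element II of SDF2L1 lay at chr22:21642114-21642124, 188 bases upstream and outside the annotated gene. The proximal copy of HSP90B1 and the elements of CALR, CRELD2 and SDF2L1 read forward on the strand opposite to the gene. UGGT1, UGGT2, MANF and CRELD1 held neither element in this window, which says only that these letters were not found there. The box CCACG alone, which both elements contain, was found in 12 of the 14 promoters (9 genes) and in 38.1% of all promoters, and the CCAAT box alone in 11 of the 14 (8 genes) and in 34.6% of all. The core TGACGTG of the unfolded protein response element, searched the same way, was found in 0 of the 14 promoters and in 1.97% of all promoters. The 150 bases before the HSPA5 start (chr9:125241344-125241493, minus strand) are printed here to show the element in its place, with its 2 CCAAT boxes and the single CCACG in capitals.
HSPA5 promoter: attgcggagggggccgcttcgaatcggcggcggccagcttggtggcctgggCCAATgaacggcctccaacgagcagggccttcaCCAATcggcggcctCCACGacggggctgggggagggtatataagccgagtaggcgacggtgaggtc

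The count totals ran from 28713607 to 34509488 fragments per library, and the least expressed of the 10 genes, UGGT2, had at least 699 of them in every library. Libraries of a group correlated with each other at a mean Pearson r of 0.996 to 0.997 over 15037 genes, and none was a copy of another. The fourth siCtrl library had 2.76% of its fragments on mitochondrial genes against 3.62% to 5.04% in the other 15, and values without it are given below. The LNCaP label was checked against 7 luminal prostate markers, KLK2, KLK3, FOLH1, HOXB13, TMPRSS2, KRT8 and KRT18. Their summed level per length was 2420.2 to 2669.9 TPM (transcripts-per-million, a level that accounts for gene length) in siCtrl, 2115 to 2205 in siXBP1, 2525 to 2694 in Vehicle and 2818 to 2964 in MKC8866. Of these markers, 4 fell and none rose after knockdown, with TMPRSS2 lowest (-0.89) and HOXB13 highest (0.01), and with MKC8866 KRT18 fell (-0.22) and KLK3 rose (0.46). The luminal sum was lower in every siXBP1 library than in any siCtrl library and higher in every MKC8866 library than in any Vehicle library, and its part in the results below was not tested. The sum over 9 markers of leukocytes, endothelium, fibroblasts and basal epithelium was 14.2 to 18.6 TPM over all libraries, with PTPRC, CD3E, PECAM1 and KRT5 at 3 counts or fewer in every library. Of the other 5, COL3A1 was called higher after knockdown (4.40 against 2.05 CPM) and none was called with MKC8866. The first count became 2 without the first siCtrl or the third siXBP1 library, and the second became 1 gene lower without the second Vehicle or the first MKC8866 library.

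XBP1, the gene targeted by the siRNA, was measured first. In counts-per-million scaled by TMM factors (CPM, used below for all comparisons within a gene), it stood at 382, 426, 365 and 362 in the siCtrl libraries and at 51.5, 54.2, 54.4 and 53.4 in the siXBP1 libraries. The groups lay far apart, with a log2 fold change of -2.85 (SE 0.051, edgeR adjusted p = 2.92e-20). With MKC8866, XBP1 was at 581, 614, 574 and 540 CPM against 486, 536, 479 and 503 with Vehicle, a rise of 0.20 on the log2 scale (SE 0.044, edgeR adjusted p = 0.00493). Counts per gene do not separate spliced from unspliced XBP1 mRNA, so they show the loss of the mRNA after knockdown and say nothing of the splicing that MKC8866 inhibits. In such bulk libraries, a lower value can mean less RNA per cell or fewer cells with the RNA, and these cannot be told apart.

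Per length, these genes spanned from among the most abundant transcripts of the cells to a modest level. HSPA5 had a mean of 3448 TPM over the 16 libraries and ranked 25 among all genes, followed by CALR with 2711 TPM (rank 31) and HSP90B1 with 2577 TPM (rank 32). CANX (622 TPM) and MANF (594 TPM) came next, then SDF2L1 with 289, CRELD1 with 103, CRELD2 with 68.1, UGGT1 with 59.5 and UGGT2 with 10.4 TPM. The library ranges of CALR and HSP90B1, of CANX and MANF, and of CRELD2 and UGGT1 overlapped, so the order within each of these pairs of neighbours was not fixed. The order of CALR and HSP90B1 differed by group: in siCtrl, CALR was at 2715 TPM ± 134 (SD, n = 4) and HSP90B1 at 2351 ± 114, whereas in siXBP1 CALR was at 2708 ± 65.4 and HSP90B1 at 2851 ± 107. However, exons of CALR share 270 bases, 9.95% of its length, with those of a gene on the other strand. Fragments in such bases were left out by the counting, but the length used for TPM keeps them. For HSP90B1, the shared parts were 2.58% and 2.24% of its length. What this does to the order of CALR and HSP90B1 was not tested. Together, the 10 genes took 1.11% ± 0.043 (SD, n = 4) of all counted fragments in siCtrl, 1.29% ± 0.045 in siXBP1, 1.15% ± 0.016 in Vehicle and 1.11% ± 0.017 in MKC8866. The share in siXBP1 (1.26% to 1.35%) lay above that of every siCtrl library (1.05% to 1.14%), and that with MKC8866 (1.09% to 1.130%) lay below that of every Vehicle library (1.134% to 1.17%). From siCtrl to siXBP1, the mean share went from 0.377% to 0.475% for HSPA5 and from 0.320% to 0.396% for HSP90B1. The log2 fold change after knockdown was negative for 6 of the 10 genes and positive for 4, so the summed share does not describe each gene.

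**Figure D1:**
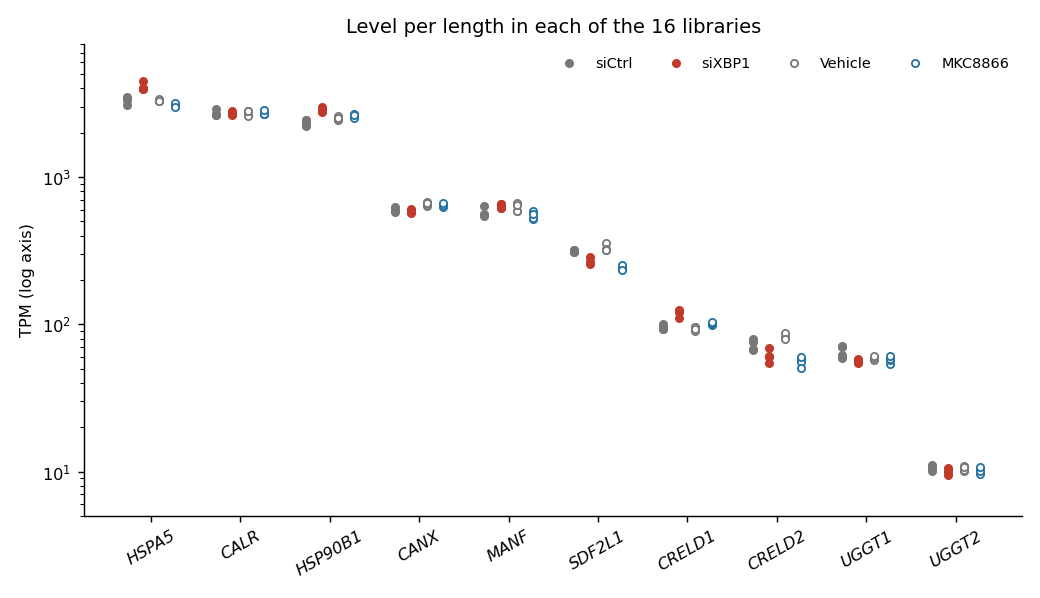
Level per length (TPM, log axis) of the 10 genes, ordered by their mean, with 1 point per library and the 4 groups side by side (filled, knockdown experiment; open, inhibitor experiment). HSPA5, CALR and HSP90B1 lie between 2209 and 4464 TPM, and UGGT2 stays near 10.4 TPM in every group.

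The comparisons asked how these genes respond in stressed cells when XBP1 mRNA is removed and when IRE1α is inhibited. After knockdown, the 10 genes split. HSPA5, HSP90B1, MANF and CRELD1 rose, UGGT1, SDF2L1 and CRELD2 fell, and CALR, CANX and UGGT2 did not pass the test. With MKC8866, HSPA5, SDF2L1, MANF and CRELD2 fell, none rose, and 6 did not pass. With the replicate number as a block, described at the end, CANX and UGGT1 were called lower too. All changes were small, with log2 fold changes between -0.60 and 0.305. Over all genes tested, 16.5% were called higher and 18.2% lower after knockdown (21021 genes), and 1.36% higher and 3.11% lower with MKC8866 (21045 genes), at an edgeR adjusted p under 0.05. With the block, 6% were called higher and 7.05% lower with MKC8866. The median log2 fold change of the 10 genes was -0.02 after knockdown and -0.08 with MKC8866, beside 0.005 and 0.003 over all genes tested. All 10 passed the filter on low counts. The 287 genes called higher with MKC8866 became 484 without the library MKC8866 2, 188 without Vehicle 3, and 180, 184 and 191 without MKC8866 1, MKC8866 3 and MKC8866 4. For the 10 genes, no gene was called higher with MKC8866 at an unadjusted p under 0.05 or by DESeq2 either. No call of these genes was lost in either comparison when any 1 library was left out, or with size factors or library totals in place of TMM, or with DESeq2.

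**Figure D2:**
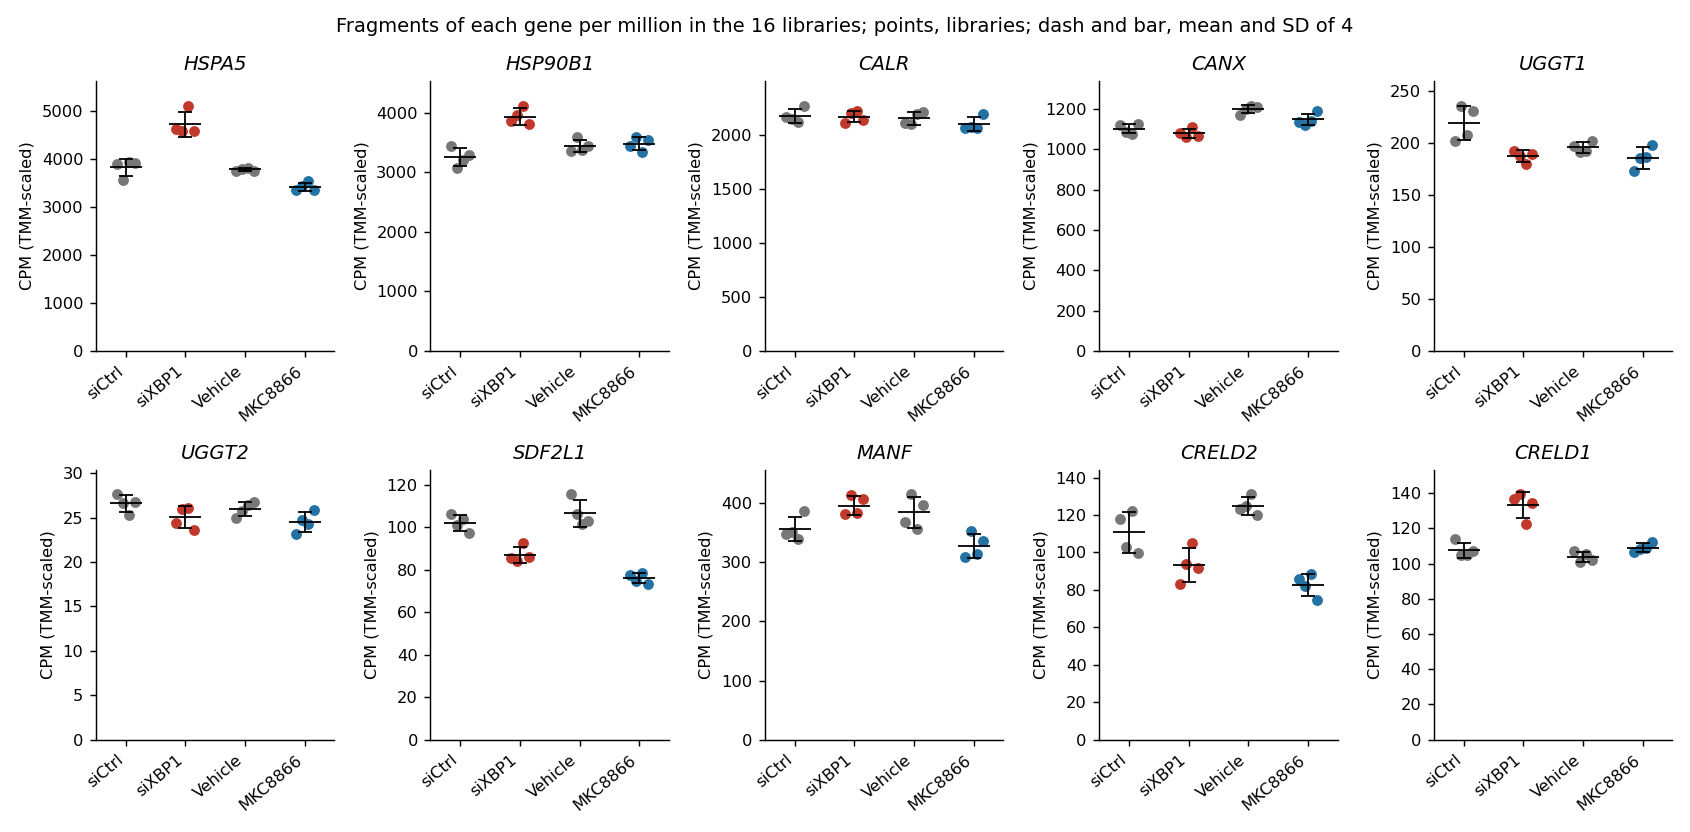
CPM of each gene in the 16 libraries (points), with the mean and SD of each group of 4 (dash and bar), all axes from 0. HSPA5, HSP90B1 and CRELD1 stand higher in all siXBP1 libraries than in any siCtrl library, whereas SDF2L1 is lower in both treated groups than in their controls.

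HSPA5 (ENSG00000044574, chr9:125234853-125241330, minus strand) was at 3892.5, 3565, 3947 and 3923 CPM in siCtrl and at 4620.5, 4594, 5116 and 4577 CPM in siXBP1. Each siXBP1 library was above each siCtrl library. The level rose by 23.0% (log2 fold change 0.30, SE 0.045, edgeR adjusted p = 1.69e-05). With Vehicle, the 4 libraries gave 3760, 3801, 3819 and 3759 CPM, a range narrower than in any other group, and with MKC8866 they gave 3355, 3443, 3538 and 3348 CPM. Here each treated library was below each control. The level fell by 9.72% (log2 fold change -0.15, SE 0.032, edgeR adjusted p = 0.00476). The siCtrl and Vehicle means, 3832 and 3785 CPM, differed by less than the spread of the siCtrl libraries. Among all tested genes, HSPA5 lay above 81.8% by its log2 fold change after knockdown and above 18.6% with MKC8866.

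HSP90B1 (ENSG00000166598, chr12:103930107-103953645) also rose after knockdown. Its siCtrl libraries gave 3443.5, 3079, 3206 and 3291 CPM and its siXBP1 libraries 3865, 3964, 4125.5 and 3809 CPM, without overlap. The rise was 20.7% (log2 fold change 0.27, SE 0.043, edgeR adjusted p = 2.45e-05). With MKC8866, its level was 3481 CPM ± 111 (SD, n = 4) against 3443 ± 107 with Vehicle. The ranges overlapped, and the log2 fold change of 0.01 had a 95% confidence interval of -0.06 to 0.08 (edgeR adjusted p = 0.912), which leaves out a fall of the size seen for HSPA5. Exons of HSP90B1 overlap those of the genes UQCC6 (121 bases) and TTC41P (105 bases) on the other strand, and fragments in these bases were left out by the counting. Processed copies of HSPA5 and HSP90B1 took at most 633 and 267 fragments in a library, beside at least 98647 for either gene.

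Among the lectin chaperones and the glucose sensors, UGGT1 passed the test after knockdown, and with MKC8866 none of the 4 passed it in the fit without a replicate block. CALR (ENSG00000179218, chr19:12938578-12944489) was at 2175 CPM ± 65.7 (SD, n = 4) in siCtrl, 2167 ± 52.0 in siXBP1, 2154 ± 59.2 in Vehicle and 2101 ± 63.7 in MKC8866, and all 4 ranges overlapped. Its log2 fold change was -0.01 after knockdown (95% confidence interval -0.09 to 0.07, edgeR adjusted p = 0.889) and -0.04 with MKC8866 (-0.11 to 0.03, edgeR adjusted p = 0.676). These intervals leave out a change as large as that of HSPA5 in the same comparison. CANX (ENSG00000127022, chr5:179678628-179730925) was at 1102 CPM ± 24.2 in siCtrl and 1078 ± 22.7 in siXBP1, with a log2 fold change of -0.04 (-0.11 to 0.04, edgeR adjusted p = 0.507). It was at 1199 ± 20.7 in Vehicle and 1147 ± 29.1 in MKC8866, with a log2 fold change of -0.07 (-0.13 to 0.00, edgeR adjusted p = 0.355).

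UGGT1 (ENSG00000136731, chr2:128091200-128195677) was at 203, 236, 208 and 231 CPM in the siCtrl libraries and at 193, 188, 180 and 190 CPM in the siXBP1 libraries, without overlap. It fell by 14.7% (log2 fold change -0.23, SE 0.045, edgeR adjusted p = 3.33e-04). Its siCtrl libraries also lay above all Vehicle libraries (means 220 and 196 CPM), whereas the ranges of Vehicle and siXBP1 overlapped. Vehicle belongs to the other experiment, and the difference between the controls was not tested. With MKC8866, UGGT1 was at 173, 186, 186 and 199 CPM against 198, 192, 192 and 202 with Vehicle. Those ranges overlapped, and the log2 fold change of -0.08 did not pass the test (95% confidence interval -0.16 to 0.01, edgeR adjusted p = 0.403). UGGT2 (ENSG00000102595, chr13:95801580-96053482, minus strand) was between 23.2 and 27.6 CPM in all 16 libraries. Its log2 fold changes, -0.09 after knockdown (-0.21 to 0.03, edgeR adjusted p = 0.229) and -0.08 with MKC8866 (-0.20 to 0.03, edgeR adjusted p = 0.528), had intervals whose lower ends come near the -0.23 of UGGT1 after knockdown, and the difference between these paralogues was not tested.

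SDF2L1 and CRELD2 fell in both experiments. SDF2L1 (ENSG00000128228, chr22:21642261-21644298) was at 106, 101, 104 and 97.2 CPM in siCtrl and at 85.8, 84.2, 92.6 and 86.1 CPM in siXBP1, and the groups did not overlap. It fell by 14.8% (log2 fold change -0.23, SE 0.046, edgeR adjusted p = 3.21e-04). The Vehicle libraries gave 116, 106, 102 and 103 CPM and the MKC8866 libraries 77.6, 74.7, 78.6 and 73.4 CPM. All treated libraries lay well below the controls, and the level fell by 28.7% (log2 fold change -0.49, SE 0.047, edgeR adjusted p = 9.63e-08).

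CRELD2 (ENSG00000184164, chr22:49918167-49927540) was at 118, 103, 122 and 99.9 CPM in siCtrl and at 83.0, 94.1, 105 and 91.8 CPM in siXBP1. The highest siXBP1 library was above the 2 lowest siCtrl libraries, so the groups overlapped, and the fall was 0.25 on the log2 scale (log2 fold change -0.25, SE 0.068, edgeR adjusted p = 0.00553). With Vehicle, CRELD2 was at 123, 125, 131 and 120 CPM, and with MKC8866 at 85.6, 82.0, 88.5 and 74.5 CPM, far apart. It fell by 33.8% (log2 fold change -0.60, SE 0.050, edgeR adjusted p = 1.06e-08), the lowest log2 fold change of the 10 genes in either comparison and one that 2.87% of all tested genes lay below. Its exons share 168 bases, 3.25% of its length, with ALG12 on the other strand. In log2 CPM over the 16 libraries, each centred on its own mean, SDF2L1 was the nearest of all expressed genes to CRELD2, with a root mean square difference of 0.099, and CRELD2 ranked 13 among the genes nearest to SDF2L1. Their profiles share the same libraries and give a likeness only.

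MANF (ENSG00000145050, chr3:51385047-51389397) moved in opposite directions, as HSPA5 did. It was at 349, 352, 340 and 386 CPM in siCtrl and at 382, 413, 383 and 407 CPM in siXBP1. Here the fourth siCtrl library, the one with the low mitochondrial share, was above the 2 lowest siXBP1 libraries. The rise was 10.7% (log2 fold change 0.15, SE 0.043, edgeR adjusted p = 0.00989), and without that library the log2 fold change was 0.19 (edgeR adjusted p = 0.00127). In the inhibitor experiment, MANF was at 369, 415, 356 and 398 CPM with Vehicle and at 310, 354, 314 and 336 CPM with MKC8866. The groups were separated by little, 354 against 356 CPM at their nearest, and the level fell by 14.7% (log2 fold change -0.23, SE 0.048, edgeR adjusted p = 0.00396).

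CRELD1 (ENSG00000163703, chr3:9933822-9945413), the membrane-anchored paralogue, went the other way from CRELD2 after knockdown. Its siCtrl libraries gave 114, 105, 105 and 107 CPM and its siXBP1 libraries 137, 139, 123 and 135 CPM, without overlap. The rise was 23.5% (log2 fold change 0.305, SE 0.046, edgeR adjusted p = 1.66e-05), the highest log2 fold change of the 10 genes. With MKC8866, CRELD1 was at 109 CPM ± 2.46 (SD, n = 4) against 104 ± 2.81 with Vehicle, with overlapping ranges and a log2 fold change of 0.07 (95% confidence interval -0.01 to 0.15, edgeR adjusted p = 0.464). At these depths and spreads, the intervals of the 10 genes were between 0.13 and 0.28 wide on the log2 scale.

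**Figure D3:**
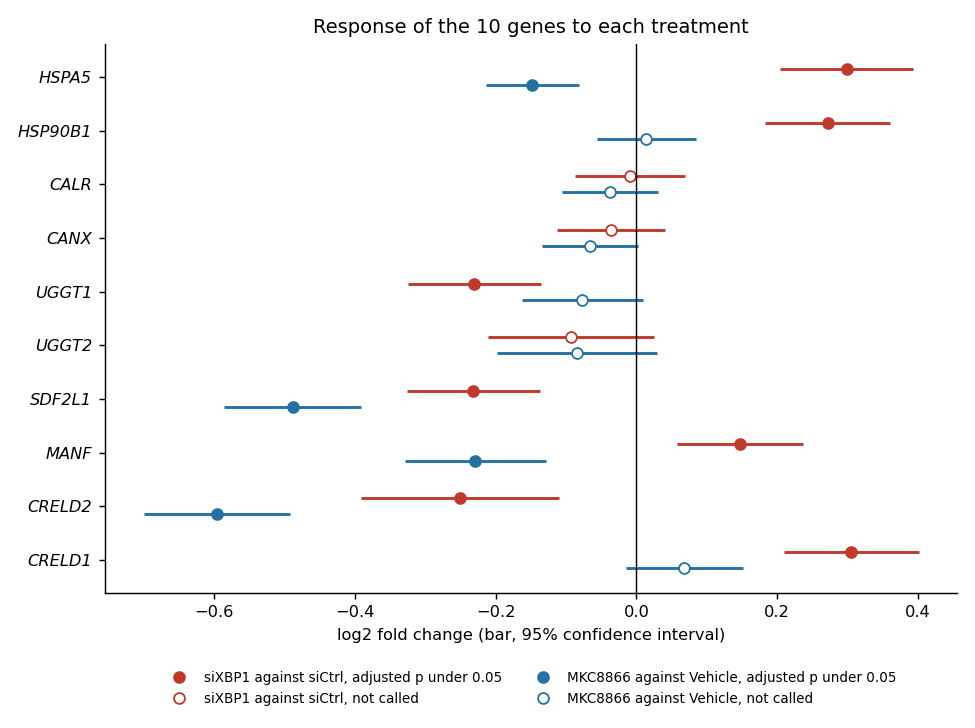
Log2 fold change of the 10 genes after knockdown (red) and with MKC8866 (blue), with 95% confidence intervals, filled where the adjusted p was under 0.05. HSPA5 and MANF lie to the right of 0 after knockdown and to the left with MKC8866, and SDF2L1 and CRELD2 lie to the left in both.

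Counted by library ranges, 3 of the 10 genes (HSPA5, HSP90B1 and CRELD1) were higher without overlap after knockdown, beside 15.6% of all tested genes, and 2 (UGGT1 and SDF2L1) were lower without overlap, beside 16.7%. With MKC8866, 4 (HSPA5, SDF2L1, MANF and CRELD2) were lower without overlap, beside 5.15% of all genes, and 0 were higher, beside 4.03%. After knockdown, the counts of calls for the 10 genes, 4 higher and 3 lower, are to be read against the large share of all genes that moved. Without the fourth siCtrl library, the same 7 genes were called in the same direction, with log2 fold changes of 0.32 for HSPA5, 0.28 for HSP90B1, 0.31 for CRELD1, -0.20 for UGGT1, -0.25 for SDF2L1 and -0.29 for CRELD2.

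The responses in the 2 experiments were then compared gene by gene, as the knockdown response minus the MKC8866 response, in a fit over all 16 libraries. For 6 genes, the response to knockdown lay above that to MKC8866, beside 10.6% of the 20357 genes tested in both, and for 0 it lay below, beside 12.7%, with UGGT1 alone below at an unadjusted p under 0.05 and none by DESeq2. The largest of these differences was that of HSPA5, with 0.45 on the log2 scale (SE 0.058, edgeR adjusted p = 6.08e-07), followed by MANF with 0.38 (SE 0.070, edgeR adjusted p = 1.25e-04). CRELD2 and SDF2L1, which fell in both experiments, fell less after knockdown, by differences of 0.35 (SE 0.093, edgeR adjusted p = 0.00605) and 0.26 (SE 0.065, edgeR adjusted p = 0.00368). HSP90B1 and CRELD1, which passed the test only after knockdown, had differences of 0.26 (SE 0.057, edgeR adjusted p = 9.02e-04) and 0.24 (SE 0.061, edgeR adjusted p = 0.00402). For UGGT1, the difference of -0.15 did not pass (95% confidence interval -0.28 to -0.02, edgeR adjusted p = 0.0875), so its knockdown response is not shown to differ from that to MKC8866, although it passed without the first siCtrl library (-0.18, edgeR adjusted p = 0.0323) and without the first MKC8866 library (-0.18, edgeR adjusted p = 0.039). CALR, CANX and UGGT2 had differences of 0.03, 0.03 and -0.01, with adjusted p-values of 0.72, 0.693 and 0.968 in the same edgeR test. The experiments had separate controls, agents and times, so that the kind of inhibition and the experiment cannot be told apart in these differences.

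Of the 20357 genes, 17 were called higher after knockdown and lower with MKC8866, among them HSPA5, MANF and PDIA4, a lumenal disulfide isomerase. By contrast, 505 genes, SDF2L1 and CRELD2 among them, were called lower in both, 132 were called higher in both, and 65 were called lower after knockdown and higher with MKC8866. HSPA5 and MANF stayed in the first group with DESeq2, the other scalings and filters and the fit of all 16 libraries, where it held between 14 and 34 genes.

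**Figure D4:**
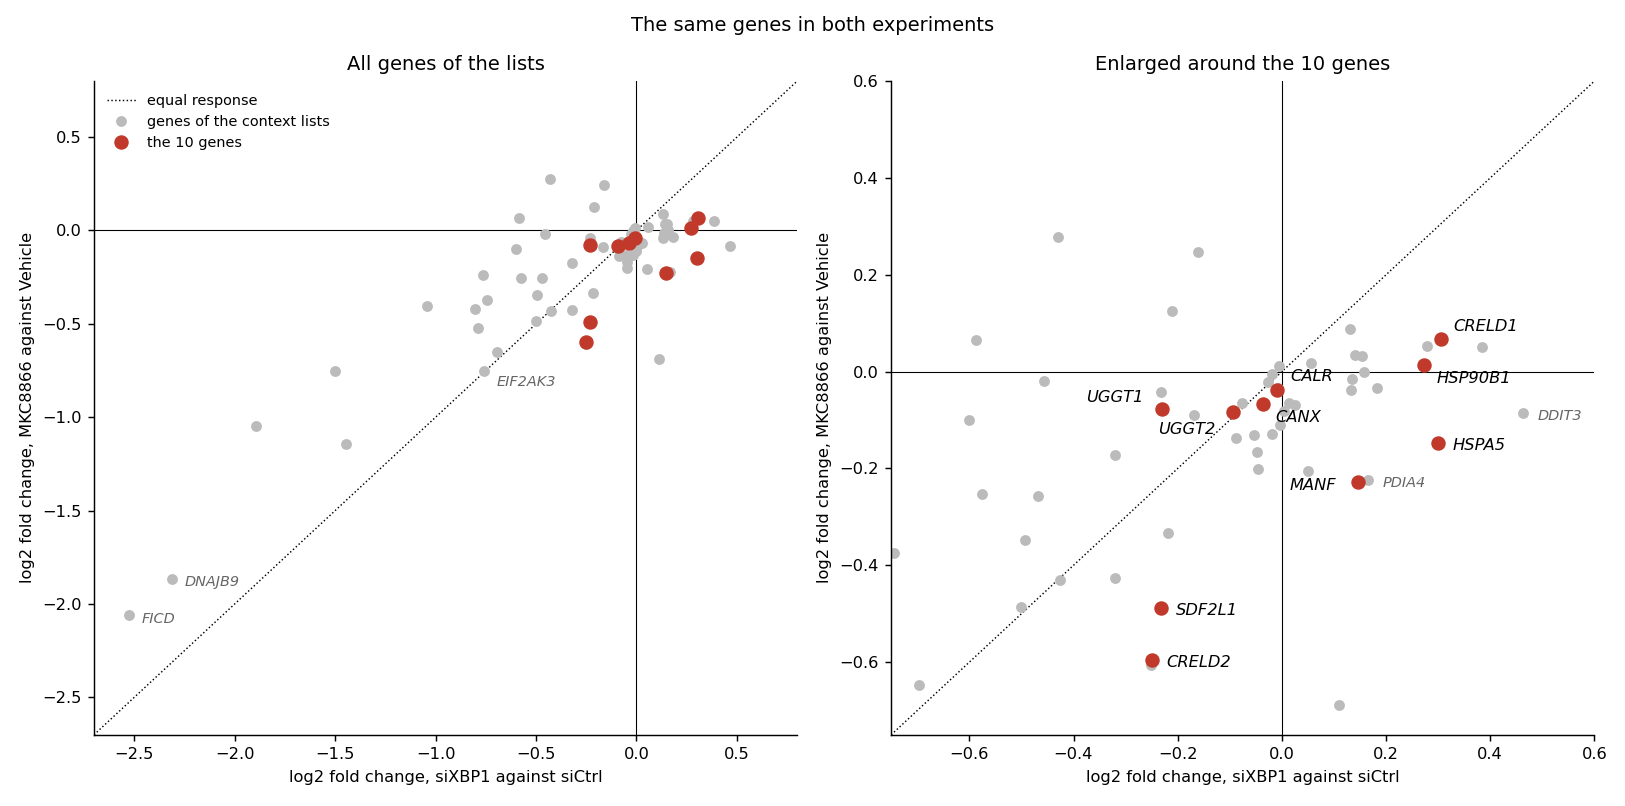
Log2 fold change after knockdown (horizontal axis) against that with MKC8866 (vertical axis) for the 10 genes (red) and for the genes of the related lists (grey), over the whole range (left) and enlarged (right). HSPA5, MANF and PDIA4 lie at the lower right, and FICD and DNAJB9 at the far lower left.

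Set beside the promoter letters shown above, the carriers of the ER stress response element did not move as a group. Of its 5 carriers, HSPA5 and HSP90B1 rose after knockdown, CRELD2 fell, and CALR and CANX did not pass the test. With MKC8866, HSPA5 and CRELD2 fell and the other 3 did not pass. SDF2L1, the carrier of element II, fell in both experiments. Of the 4 genes with neither element in the window, MANF and CRELD1 rose after knockdown, UGGT1 fell and UGGT2 did not pass. With MKC8866, MANF fell, so that it moved in opposite directions like the carrier HSPA5, and UGGT1, UGGT2 and CRELD1 did not pass. These calls are from the fits without a replicate block.

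The genes that work with these chaperones were examined in lists, whose counts stand beside the shares over all genes given above. Where a list had no gene called in a direction, DESeq2 called none either, and the only genes at an unadjusted p under 0.05 were, with MKC8866, PRKCSH, RCN3 and HSPA8 upward and the fibroblast marker COL1A1 downward. The 9 partners of BiP comprised its DnaJ co-chaperones, its exchange factors and FICD, the enzyme that adds AMP to BiP and removes it. Of them, 7 fell after knockdown and 7 fell with MKC8866. None rose in either. The median log2 fold changes were -0.50 and -0.37. FICD fell most, by log2 fold changes of -2.52 (edgeR adjusted p = 1.38e-19) and -2.06 (edgeR adjusted p = 6.61e-19). Its mean level was 141 CPM in siCtrl and 24.5 in siXBP1, and 111 in Vehicle and 26.7 in MKC8866. DNAJB11 (ERdj3), with which SDF2L1 works, did not pass the test after knockdown (0.05, edgeR adjusted p = 0.409) and fell with MKC8866 (-0.205, edgeR adjusted p = 8.55e-04). The exchange factor SIL1 showed the other pattern, with a fall after knockdown and a value of 0.07 with MKC8866 (edgeR adjusted p = 0.57). After knockdown, BiP itself rose and most of these partners fell.

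In the calnexin and calreticulin cycle, 8 genes for glucosidases, lectins and associated isomerases were listed. After knockdown 4 fell and 1 rose, and with MKC8866 2 fell and none rose. Without the second MKC8866 library, the latter counts were 4 lower and 1 higher. MOGS, the first glucosidase to act on the glycan, fell in both, by log2 fold changes of -0.79 (edgeR adjusted p = 1.19e-10) and -0.52 (edgeR adjusted p = 4.48e-07). CLGN, a paralogue of calnexin, rose after knockdown (0.38, edgeR adjusted p = 6.11e-07). PRKCSH, the beta subunit of glucosidase II, fell after knockdown (-0.21, edgeR adjusted p = 9.42e-04) and stood at 0.125 with MKC8866 without passing the test (edgeR adjusted p = 0.155).

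Of the 7 genes listed for disulfide isomerases, cyclophilin B, CNPY2 and CNPY3, 4 fell and 1 rose after knockdown, and 5 fell and none rose with MKC8866. P4HB (protein disulfide isomerase) fell in both (-0.575 and -0.25). TXNDC5 was lowest with MKC8866 (-0.69, edgeR adjusted p = 9.9e-04), at a low level of 10.7 CPM in Vehicle and 6.67 in MKC8866. PDIA4 was the gene that rose after knockdown, with a log2 fold change of 0.165 (edgeR adjusted p = 0.00153), and it fell with MKC8866 by -0.22 (edgeR adjusted p = 9.61e-05). Of the 5 calcium-binding proteins of the lumen, CALU, RCN1, RCN2, RCN3 and SDF4, 3 fell and 1 rose after knockdown and 1 fell with MKC8866. CALU (calumenin) fell most, by -0.80 and -0.42, and RCN2 rose after knockdown by 0.18 (edgeR adjusted p = 0.0441), a call that was lost under 6 of 15 alternatives. Of the 3 KDEL receptors, which return lumenal proteins such as BiP from the Golgi, 2 fell after knockdown and 1 with MKC8866, or 2 without the second Vehicle library. KDELR2 was lowest in both comparisons (-1.04 and -0.40).

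Paralogues of the 10 genes in other compartments or of lower level gave a further comparison. Of 9 listed, 8 passed the filter. After knockdown, 1 fell and 3 rose, and with MKC8866 0 of 8 passed the edgeR test without the replicate block, and 1 rose with it. HSP90AB1, the cytosolic Hsp90 paralogue of HSP90B1, fell after knockdown (-0.46, edgeR adjusted p = 2.18e-09), opposite to HSP90B1. HSPA8, the cytosolic paralogue of HSPA5, rose by 0.13 (edgeR adjusted p = 0.00694). Among 14 sensors and factors of the stress response, 4 fell and 5 rose after knockdown, and 4 fell and 1 rose with MKC8866. EIF2AK3, which encodes PERK, fell alike in both, by -0.76 and -0.75. DDIT3, the gene of the stress factor CHOP, rose after knockdown (0.46, edgeR adjusted p = 6.79e-09) and stood at -0.085 with MKC8866 (edgeR adjusted p = 0.325). ERN1, the gene of IRE1α, rose with MKC8866 (0.25, edgeR adjusted p = 6.18e-04). ATF6 mRNA, named here after its values were seen, had log2 fold changes of 0.055 after knockdown (edgeR adjusted p = 0.322) and 0.02 with MKC8866 (edgeR adjusted p = 0.909), and counts of its mRNA do not show how much ATF6 was cut.

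Beside all these stood 5 genes listed as dependent on XBP1s, DNAJB9, SERP1, EDEM1, SEC24D and SYVN1, which all fell in both experiments. The list was chosen with earlier results of these data known, so these falls are a description and no test of XBP1s dependence. DNAJB9 is also counted among the partners of BiP. Log2 fold changes of the 5 genes ran from -2.31 (DNAJB9) to -0.70 (EDEM1) after knockdown and from -1.87 to -0.65 with MKC8866. The least affected of the 5 fell more than any of the 10 genes in the same comparison.

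**Figure D5:**
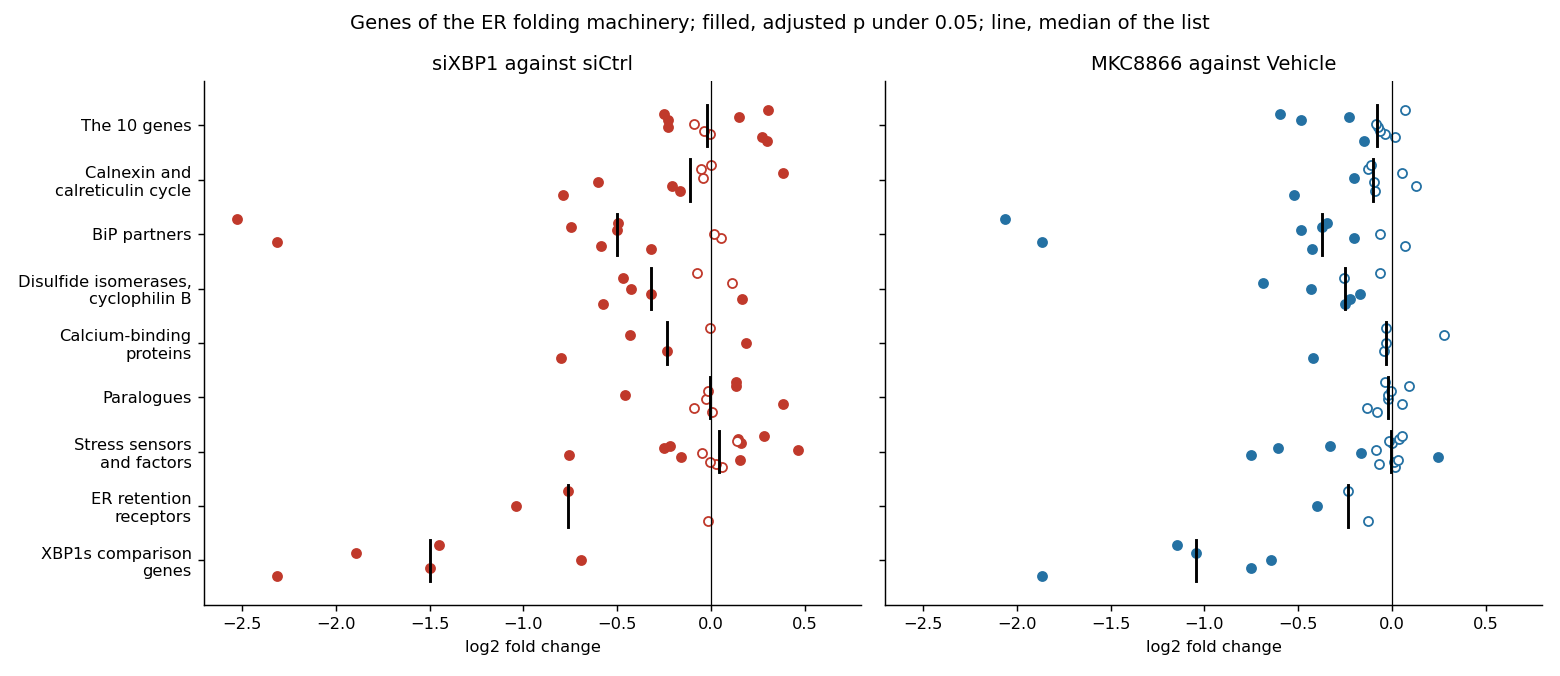
Log2 fold changes of the 10 genes and of 8 lists of related genes after knockdown (left) and with MKC8866 (right), filled where the adjusted p was under 0.05, with the median of each list as a vertical line. The 10 genes lie on both sides of 0 after knockdown, while the XBP1s comparison genes and most partners of BiP lie well to the left in both panels.

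Finally, the genes whose profile over the 16 libraries was most like that of HSPA5 were sought among 15036 other genes with a mean of at least 1 CPM, by the root mean square difference of centred log2 CPM. The 5 nearest were CUL3 (0.059), ACADSB (0.063), GARS1 (0.071), IARS1 (0.072) and CYP2R1 (0.072), the same 5 as with a minimum of 10 CPM. All 5 were called higher after knockdown (edgeR adjusted p of 0.0167 or less). They were chosen for their likeness to HSPA5 over these same libraries, so these calls follow largely from the choice and test nothing. With MKC8866 no call was made for any of these 5 (edgeR adjusted p from 0.131 to 0.848), whereas HSPA5 was called lower. Their log2 fold changes with MKC8866 were all negative, from -0.136 (CUL3) to -0.036 (CYP2R1), beside -0.148 for HSPA5. Whether they differ from HSPA5 was not tested. None of the other 9 genes described here was among the 20 nearest to HSPA5, and the closest of them, CRELD1, ranked 406. GARS1 and IARS1 encode aminoacyl-tRNA synthetases. The likeness is one of values over few groups, and says nothing of function or control.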

How the data were processed

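Counts of fragments per gene were deposited by the authors in 1 table of 16 libraries. The libraries were stranded and paired-end, aligned to hg38 with STAR 2.5.2a and counted with featureCounts 1.5.0 on the Ensembl GRCh38.85 annotation, without strand, multimapping fragments or fragments over more than 1 gene. The deposited counts were not normalized.

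Symbols were matched for 56948 of 58051 genes. Genes that exceeded 5 counts in 1 or more libraries of both groups were tested in each experiment against its own control with edgeR 4.0.16 (quasi-likelihood F test, TMM, Benjamini-Hochberg over all genes tested, called at an adjusted p under 0.05), checked on simulated data. The difference of responses was an interaction in a fit over 16 libraries. TPM was computed from the counts and the deposited gene length. Intervals are 95% confidence intervals from edgeR standard errors.

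The 10 genes and the lists were chosen with earlier results of these data known. From each list, only the genes lowest and highest in a comparison were named, unless stated. Promoter sequences came from RefSeq (GRCh38.p14). The labels do not say that replicates were separate cultures, so p-values measure the spread between these samples, which may be technical. Alternatives were DESeq2 1.42.0, other scalings, filters, a replicate block and the removal of each library. The protein sequences were not analysed here, and 1 gene of the planned marker list is not reported here.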

Additional observations from a re-analysis of the deposited data

Results flagged for a closer look

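In 40 checks of 10 genes in 4 groups, 3 single libraries stood apart from the other libraries of their group by Dixon's criterion, where chance alone gives about 5 in 100 such checks. The second siCtrl library was the lowest for HSPA5, with 3565 CPM against 3892.5 to 3947 in the others. The third siXBP1 library was the highest for HSPA5, with 5116 CPM against 4577 to 4620.5. Over the fits that left out 1 library each, the log2 fold change of HSPA5 after knockdown lay between 0.26 and 0.32. The fourth MKC8866 library was the highest for CALR, with 2197 CPM against 2066 to 2076.

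For 6 genes, the response to knockdown and the response to MKC8866 differed by the interaction test, always with the knockdown response above that to MKC8866. The log2 differences were 0.448 for HSPA5, 0.260 for HSP90B1, 0.259 for SDF2L1, 0.378 for MANF, 0.348 for CRELD2 and 0.240 for CRELD1. The kind of inhibition, the controls and the times all differ between the experiments and cannot be told apart in these differences.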

How the results depend on the processing

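Across DESeq2, RLE size factors, library totals, both other filters, the fit of all 16 libraries and the removal of each library, the 10 genes kept 4 higher and 3 lower calls after knockdown and 4 lower and 0 higher calls with MKC8866. Over the removals, the inhibitor comparison gave 527 to 833 genes called lower and 180 to 484 called higher, the knockdown comparison 3365 to 3622 and 3172 to 3475, and the difference of responses 2371 to 2655 below and 1897 to 2139 above, with 0 to 1 of the 10 genes below and 6 above. Sign changes were seen only in values near 0 that were not called: CALR after knockdown (0.028 with library totals, 0.002 with at least 10 counts in every library, -0.018 to 0.018 without single libraries), CANX after knockdown (0.001 with library totals), HSP90B1 with MKC8866 (-0.009 to 0.032 without single libraries) and the difference of UGGT2 (0.015 with library totals, -0.033 to 0.021 without single libraries). The cause was not tested.

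The replicate numbers of the labels were also used as a block. Same-numbered libraries deviated together at correlations of 0.08 to 0.33 in the inhibitor experiment (mean 0.199, against -0.066 for other pairs). In the knockdown experiment they did so at 0.01 to 0.06 (mean 0.040, against -0.013). The deviations were taken from the mean of each group and cancel out within it. The means of the other pairs thus follow largely from those of the same numbers and are no separate baseline. Of each inhibitor group, 3 of 4 libraries correlated best with their own number, and of each knockdown group 0 of 4. The labels do not say that the numbers pair libraries, and the main fits did not pair them. The inhibitor libraries gave some sign of pairing, so both fits are given for MKC8866. With the replicate block, 1484 genes were called lower and 1262 higher with MKC8866, and CANX (-0.07, edgeR adjusted p = 0.0237) and UGGT1 (-0.08, edgeR adjusted p = 0.0429) were called lower. Of the calnexin and calreticulin cycle 6 were then lower and 1 higher with MKC8866, and 2 KDEL receptors were lower. In the same fit, 1 paralogue was higher, and 5 of the stress sensors and factors were lower. Of the luminal markers 3 were higher, and of the markers of other cells 1 was lower. The genes called higher after knockdown and lower with MKC8866 went from 17 to 108, with HSPA5 and MANF still among them. The difference of UGGT1 (-0.15, edgeR adjusted p = 0.0378) then passed, so that 1 of the 10 genes was below and 6 were above. After knockdown, the replicate block gave 3846 genes lower and 3477 higher and left the calls of the 10 genes at 3 and 4.

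The lowest count of the 10 genes in a library was 699 fragments, for UGGT2. The comparisons are limited by 4 libraries per group, the absence of unstressed cells, and the separate controls of the experiments.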
